A study of Mus musculus with 2 samples.

Results

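Mir221 and Mir222 are neighbouring microRNA (miRNA) genes on the mouse X chromosome, and both were measured by small RNA sequencing of embryonic kidney. They were found by their Ensembl identifiers, ENSMUSG00000065422.1 and ENSMUSG00000065471.1, and are 2 of the 1973 miRNA genes in the deposited tables. The kidneys came from untreated B6NCrl mouse embryos of mixed sex at 14.5 days of gestation, and all samples form 1 group of 2 biological replicates. Each replicate was prepared from 2 kidneys, collected on a different day, and only RNA shorter than 30 nucleotides went into the libraries. The labels name 1 pup for each sample but also pooled sexes and a shared donor identifier, so the number of embryos behind a sample is unknown. Any SD below measures how far these 2 samples differ, and that difference may be technical in part. Each test below that gave a p-value compared read counts of the 2 libraries. Such a test takes in counting error or an assumed spread, and does not measure the spread between samples. The design has no contrast between conditions, so the comparisons are between the 2 genes, with other miRNA genes, and between the 2 libraries.

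A miRNA is cut from the stem of a hairpin in a longer transcript, and it guides Argonaute proteins to messenger RNAs that pair with its seed, the bases near its 5′ end. The miR-221 and miR-222 hairpins are known to be transcribed together as 1 primary RNA, and their 3p strands share a seed and hence many predicted targets. Well studied targets are Kit, a receptor tyrosine kinase of progenitor cells, and Cdkn1b, an inhibitor of the cell cycle. The pair is known from endothelial cells, vascular smooth muscle and blood progenitors, all of which may be present in a developing kidney.

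The mature sequences below, from RefSeq on GRCm38.p6, show what the pair shares and where it differs. Capitals mark the seed, bases 2 to 8, and all are written 5′ to 3′.
mmu-miR-221-3p: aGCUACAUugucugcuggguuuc
mmu-miR-222-3p: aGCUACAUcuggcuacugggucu
mmu-miR-221-5p: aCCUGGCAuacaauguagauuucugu
mmu-miR-1928: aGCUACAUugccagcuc
The 3p miRNAs of both genes have 23 bases and are identical over the first 8. Aligned without gaps, they hold the same base at 11 of 23 positions (47.8%). The 5p miRNA of Mir221 has another seed. Among the 1738 mature miRNAs of that table, 3 carry the seed GCUACAU, the third being miR-1928, a 17-base sequence from chromosome 1. It shares its first 10 bases with miR-221-3p and its first 8 with miR-222-3p. Mir1928 had 0 counts in both libraries, and the limit that a count of 0 allows, 3 counts, is 0.577 CPM in the first library and 0.814 CPM in the second. CPM stands for counts per 1000000, taken over the counts on the own strand of all miRNA genes. Of the miRNA genes whose listed mature sequence has this seed, Mir221 and Mir222 therefore held all own-strand counts. Only 927 of the 1973 genes have a symbol in the RefSeq table, so the seeds of the other genes were not checked.

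The hairpins are shown next with the 3p miRNA in capitals, because the deposited counts are per gene and do not separate the 3p from the 5p strand.
Mir221 hairpin: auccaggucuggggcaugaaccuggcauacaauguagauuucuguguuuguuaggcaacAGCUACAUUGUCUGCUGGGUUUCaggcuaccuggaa
Mir222 hairpin: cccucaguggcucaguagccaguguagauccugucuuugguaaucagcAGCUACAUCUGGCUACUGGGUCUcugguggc
The Mir221 hairpin has 95 bases at chrX:19146294-19146388 and the Mir222 hairpin 79 bases at chrX:19146893-19146971, both on the minus strand of mm10 (GRCm38). Mir222 is the upstream one in the direction of transcription, and 504 bases separate the hairpins. In GENCODE release M21 no other gene overlaps this span, so the pair has no annotated host gene. The nearest gene upstream on the same strand is Gm14636, a non-coding transcript that ends 10010 bases from Mir222. The longest stretch between the 2 hairpins has 9 bases, and neither shares 21 bases with any other of the 2202 annotated mouse miRNA hairpins. The longest stretch shared with one of those was 13 bases for Mir221 and 12 for Mir222. Among the 345 genes called detected below, 75 do share 21 bases, and reads that fit several places are not counted.

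Both genes were expressed at a moderate level in each library, with Mir221 above Mir222. The libraries held 5202588 and 3683978 counts on the strand of miRNA genes. Reads mapped to several places, 28.3% and 27.5% of all reads, are in no gene's count. Mir221 had 2199 counts in replicate 1 and 1826 in replicate 2. These correspond to 423 CPM (95% exact Clopper-Pearson interval 405 to 441) and 496 CPM (473 to 519), a mean of 459 ± 51.6 CPM (SD, n = 2). Mir221 was thus somewhat higher in replicate 2, and the intervals of the libraries do not overlap. Mir222 had 1449 and 1096 counts, or 279 CPM (264 to 293) and 298 CPM (280 to 316), a mean of 288 ± 13.4 CPM (SD, n = 2). Its 2 libraries lie close together and their intervals overlap. The intervals cover counting error only, and reads amplified by PCR without molecular identifiers are not independent molecules. The levels of the 2 genes did not overlap between libraries, since the lowest Mir221 value, 423 CPM, was above the highest Mir222 value, 298 CPM. The values of both genes come from the same 2 libraries and are paired. Even an exact two-sided permutation test that ignored the pairing could not give a p below 0.333.

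By mean CPM, Mir221 ranked 108 and Mir222 ranked 128 of 1973 genes. In the separate libraries, Mir221 ranked 112 in replicate 1 and 108 in replicate 2. Mir222 ranked 128 in replicate 1 and 127 in replicate 2. A gene is called detected here at 10 or more own-strand counts in each library, which 345 genes reached, both members among them. Mir221 lay above 68.7% and Mir222 above 62.9% of the detected genes. Against the median detected gene, at 114 CPM, the mean of Mir221 was 4.03-fold and that of Mir222 2.53-fold higher. The most abundant gene, Mir10a at 144007 CPM, exceeded Mir221 by 314-fold in these counts. Counted as 1 unit, the pair held 701 CPM in replicate 1 and 793 CPM in replicate 2, a mean of 0.0747% ± 0.00650 of counts (SD, n = 2). As 1 unit it would rank 96 in replicate 1 and 95 in replicate 2.

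The order of genes around the members was not resolved by these libraries. Directly above Mir221 stood Mir381 at 517 ± 66.0 CPM and Mir669l at 468 ± 9.73 CPM (SD, n = 2). Directly below stood Mir676 at 457 ± 43.9 CPM and Mir337 at 445 ± 83.1 CPM. Around Mir222 stood Mir154 at 303 ± 16.2 CPM and Mir181a-2 at 292 ± 131 CPM above, and Mir210 at 287 ± 20.1 CPM and Mir224 at 277 ± 49.95 CPM below. All 8 had ranges over the libraries that overlap the range of the member they adjoin. Among all detected genes, 11 had a range that overlaps that of Mir221 and 8 one that overlaps that of Mir222. Neither count includes the other member of the pair.

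The genes closest in level to the mean of the pair over both libraries were Mir134, Mir145a, Mir125b-2, Mir148b and Mir1193. Likeness was the Euclidean distance of log2(CPM + 1) over the 2 libraries from the mean profile of Mir221 and Mir222. Mir134, of the imprinted Dlk1-Dio3 region, was nearest at a distance of 0.0559, with 331 and 388 CPM. Mir145a, a miRNA of smooth muscle, followed at 0.105, with 357 and 408 CPM. The distances of the other 3 ran from 0.114 to 0.253. With only 2 samples this measure finds genes near that mean level and says little of a shared pattern. In each library all of these genes lay above Mir222 and below Mir221, so they match the level of neither member. On the X chromosome, Mir221 ranked 13 and Mir222 ranked 17 of 41 detected miRNA genes, a list led by Mir322 at 30535 CPM.

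Mir221 had about 1.6 times the counts of Mir222, with the same direction in both libraries. In replicate 1 the count of Mir221 over that of Mir222 was 1.52 (95% exact interval 1.42 to 1.62). The same ratio was 1.67 in replicate 2 (1.54 to 1.80). The mean was 1.59 ± 0.105 (SD, n = 2). As log2 of Mir222 over Mir221, the values were -0.60 (-0.70 to -0.51) and -0.74 (-0.85 to -0.63), with a mean of -0.67 ± 0.0952. Mir221 held 60.3% of the pair's counts in replicate 1 and 62.5% in replicate 2. From replicate 1 to replicate 2 the log2 ratio moved by -0.13 (95% interval -0.28 to 0.01). The two-sided Fisher's exact test of the 4 counts gave p = 0.0704, which misses the threshold of 0.05 and does not show that the ratios are equal. The number of reads from a small RNA does not grow with the length of its hairpin, so counts were not divided by length. Divided by hairpin length, the mean log2 ratio was -0.40, in the same direction. A read count also depends on how well each miRNA is captured in the library, which these data do not measure.

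Other closely spaced miRNA genes were mostly further apart in level than Mir221 and Mir222. The comparison took all pairs of adjacent detected miRNA genes on 1 strand whose starts lie at most 10 kb apart, 103 pairs in all, of which 41 hold a gene that shares 21 bases with another hairpin. Their mean log2 ratios had a median size of 2.85 and ran from 0.16 to 8.52. At 0.67 in size, Mir222 over Mir221 ranked 13 from the smallest. Of the 103 pairs, 20 had mean ratios within 2-fold, among them Mir221 with Mir222. The ratio of the pair moved by 0.13 in size between libraries, rank 39 from the smallest, against a median of 0.20 over all pairs and a range of 0.0033 to 1.23. Pairs at 1 locus share genes and are not independent, so these ranks only describe where the pair lies.

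**Figure D1:**
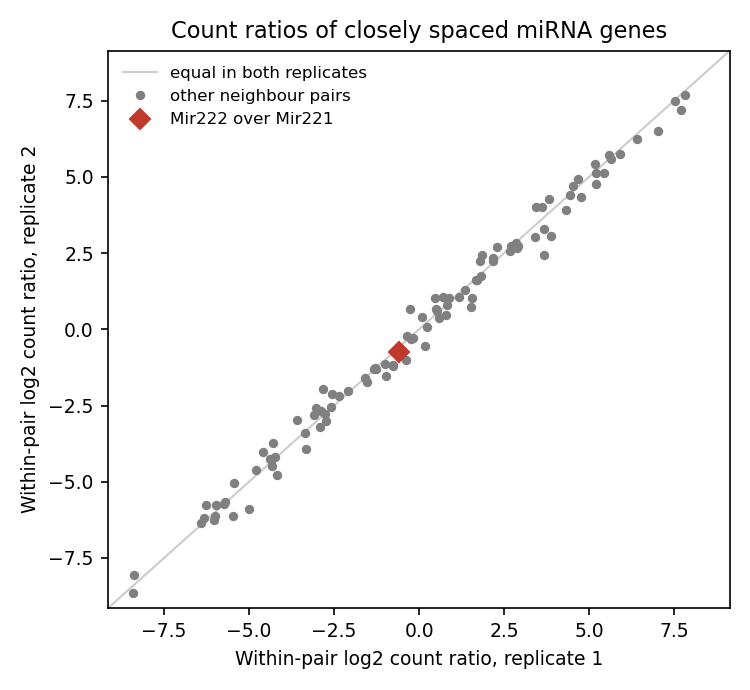
Log2 count ratio within each of 103 pairs of adjacent miRNA genes in replicate 1 (horizontal) and replicate 2 (vertical), as the gene of higher coordinate over the other. Mir222 over Mir221 (red diamond), at -0.60 and -0.74, lies near the centre of the plot, and the grey line marks equal ratios in both libraries.

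Of 4 pairs of neighbouring genes chosen for comparison, 3 had counts for both genes, and these were further apart in mean level. In the smooth muscle pair, Mir143 had 17889 and 19401 CPM and Mir145a 357 and 408 CPM. Its log2 ratio of Mir145a over Mir143 was -5.65 in replicate 1 and -5.57 in replicate 2. In each library Mir145a lay between Mir222 and Mir221, while Mir143 was far above both. Mir322 and Mir503 are adjacent genes of a larger X-linked cluster, and the log2 ratio of Mir503 over Mir322 was -4.69 and -4.92. In the erythroid pair, Mir451a exceeded Mir144 by 1.56 and 1.04 on the log2 scale, and Mir451a shares 21 bases with another hairpin, so its count is uncertain. In both libraries each of these ratios was larger in size than that of Mir222 over Mir221, with exact intervals apart from it in the same library, except in replicate 2, where the interval for Mir451a over Mir144 (0.67 to 1.42) overlaps in size that of the pair. Of Mir425 and Mir191, Mir425 had 2470 and 2192 CPM, and Mir191 is not analysed here. These differences between pairs were not tested over samples, and all the ratios come from the same 2 libraries. Even an exact two-sided permutation test of 2 values against 2 that ignored this pairing could not give a p below 0.333.

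**Figure D2:**
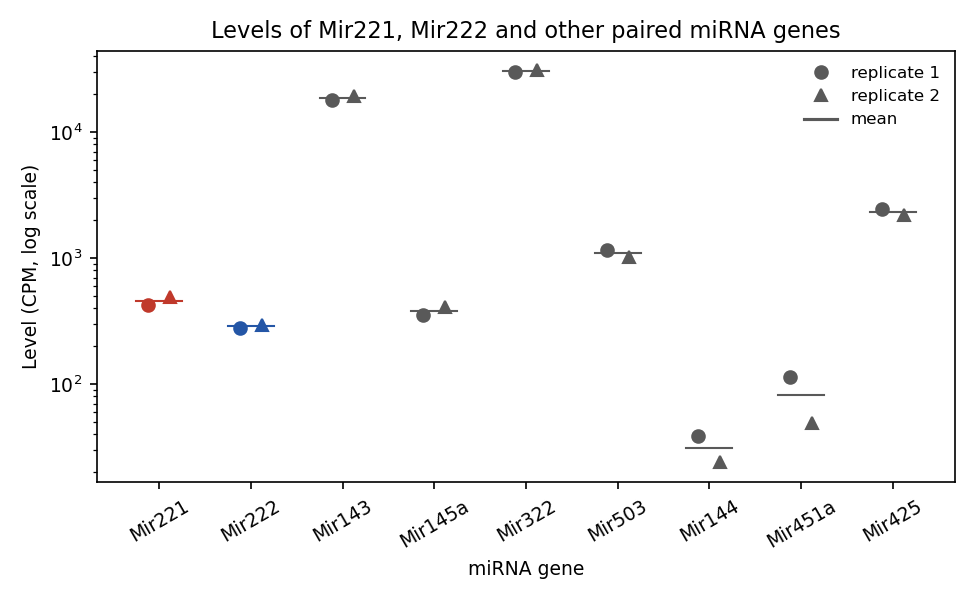
Level in CPM (log axis) of Mir221 (red), Mir222 (blue) and 7 genes of the comparison pairs in replicate 1 (circles) and replicate 2 (triangles), with bars at the mean. The members of the pair lie close to each other, whereas Mir143 and Mir322 lie far above their partners Mir145a and Mir503.

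Between the libraries, Mir221 was higher in replicate 2 and Mir222 was not called different. The test was a two-sided exact binomial test of the counts given TMM-scaled totals, adjusted by Benjamini-Hochberg over the 345 detected genes, and it takes counting error alone into account. The log2 ratio of replicate 2 over replicate 1 was 0.23 for Mir221 (95% interval 0.14 to 0.32, adjusted p = 1.35e-06 by the exact binomial test). For Mir222 it was 0.10 (-0.02 to 0.21, adjusted p = 0.149 by the same exact test). Thus 1 of 2 members was called, where 53.9% of all detected genes were. The share called was 31.7% of genes with at least 1 count in each library and 73.5% of those with at least 100, and the lowest count of either member was 1096. The median size of the log2 ratio over detected genes was 0.24, and 50.1% of them had a larger one than Mir221 and 74.5% a larger one than Mir222. When edgeR's exact test was given a coefficient of variation of 0.2, an assumed value, neither member was called (adjusted p = 1 for both), against 0.580% of detected genes. The difference in call between the members is not a shown difference between them, since Fisher's exact test of the ratio gave p = 0.0704. In whole tissue, fewer cells of a type and less RNA per cell cannot be told apart.

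**Figure D3:**
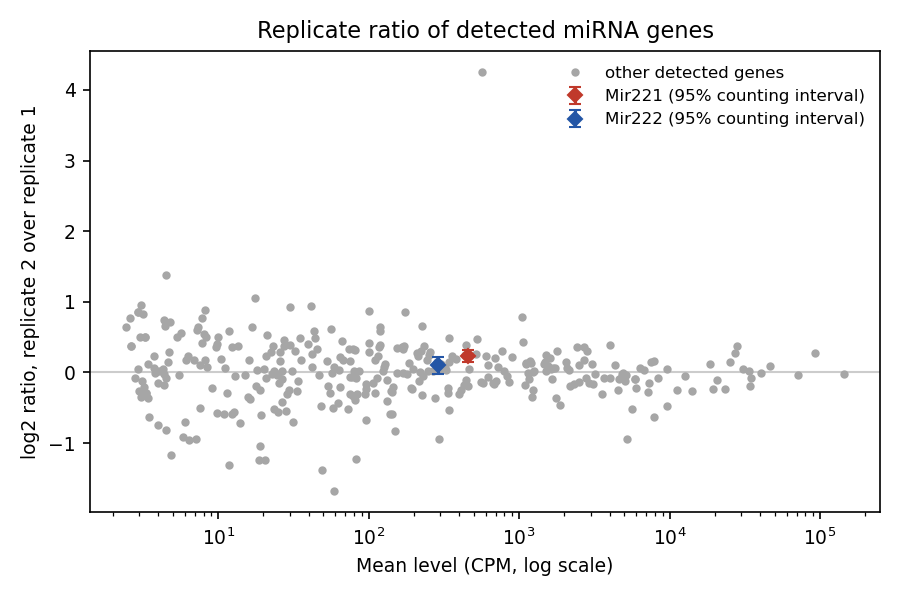
Log2 ratio of replicate 2 over replicate 1 against mean level in CPM (log axis) for the 345 detected miRNA genes (grey), with 95% counting intervals for Mir221 (red) and Mir222 (blue). The members, at 0.23 and 0.10, lie inside the main band of points.

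Markers of endothelial cells and smooth muscle, in which the pair is known, were present, and some of the listed markers moved between the libraries. For blood the lists held erythroid and leukocyte genes, and none was for blood progenitors. Of the 2 listed endothelial genes, Mir126a stood at 45180 CPM in the first library and 47759 CPM in the second. Mir126b is not analysed here. Of the smooth muscle list, 2 of 3 genes were detected, with summed levels of 18246 and 19809 CPM and Mir145b at 0. All 3 erythroid genes were detected, and their summed level was 161 CPM in replicate 1 and 77.6 CPM in replicate 2. Of 4 leukocyte genes with a row, 3 were detected, at 640 and 591 CPM in sum, and Mir142b was at 0 on its own strand. Mir142b had 1684 and 1151 counts on the opposite strand, which this sum leaves out, and Mir142 is not analysed here. The 4 stromal genes summed to 6783 and 5817 CPM. Mir122, of hepatocytes, stood at 56.3 CPM in the first library and at 1074 CPM in the second. For the labelled tissue, all 5 miR-200 family genes of epithelium were detected, at 26800 and 23488 CPM in sum. Of the 5 tubule genes 3 were detected, and the list of 5 summed to 354 and 490 CPM. Within it Mir192 and Mir194-2 had log2 ratios of replicate 2 over replicate 1 of 0.85 and 0.87, and Mir204 one of -0.20. Mir192 and Mir194-2 are neighbours whose starts lie 201 bases apart, so their ratios are not independent. At least 1 of these neighbours shares 21 bases with another hairpin, so its count is uncertain. The part of any of these cell types in the ratio of Mir221 was not tested.

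The counts of the pair came almost wholly from the annotated strand. On the opposite strand Mir221 had 0 counts in both libraries, which allows up to 0.136% and 0.164% of its counts. Mir222 had 3 opposite-strand counts in replicate 1, 0.207% of its counts (95% exact interval 0.0426 to 0.603), and 6 in replicate 2, 0.544% (0.20 to 1.18). Over all genes the opposite strand held 1.93% and 1.80% of assigned counts, with genes read on that strand, such as Mir142b, included.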

How the data were processed

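Per the deposited file descriptions, the authors aligned reads to mm10 and counted them on GENCODE release M4; the aligner and counter were not stated there. The authors deposited raw counts per miRNA gene, and those on the gene's own strand were used. The 4 tally rows of each table entered only the total of all reads. Symbols came from GENCODE M21 (same assembly), which matched 1894 of 1973 identifiers, and sequences from RefSeq tables. Replicates were compared by exact binomial tests on TMM-scaled totals and Fisher's exact test. With no contrast, no quasi-likelihood test was run.

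Named genes were the pair, 4 comparison pairs, genes of the same seed, the 2 detected genes on either side of each member, the 5 nearest profiles and the marker lists. Members and lists were chosen with earlier results of these data known. Alternatives were DESeq2 size factors, edgeR's exact test, other totals, minimums and distances, unstranded counts and single replicates. The binomial test was run on simulated counts with counting error alone and planted 2-fold changes. It recovered 173 of 187 changed genes and called 4 of 142 unchanged ones. The simulation held no spread between replicates, so it cannot show how the test behaves where replicates differ by more than counting error. The software was Python 3.11.15 with scipy 1.17.1, pandas 2.3.3, numpy 2.4.6 and matplotlib 3.10.9, and R 4.3.3 with DESeq2 1.42.0 and edgeR 4.0.16.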

Additional observations from a re-analysis of the deposited data

Results flagged for a closer look

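Mir222 had 6 counts on the strand opposite to the gene in replicate 2 and 3 in replicate 1, a measure outside the own-strand counts. The shares, 0.544% in replicate 2 and 0.207% in replicate 1, were below those over all genes, 1.80% and 1.93%. The share over all genes takes in genes read on the opposite strand, such as Mir142b with 1684 and 1151 such counts. It need not be that of a typical gene.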

How the results depend on the processing

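The level depends on its denominator. Without Mir10a in the total, the mean was 536 CPM for Mir221 and 336 CPM for Mir222. With all reads as the denominator the means were 240.2 and 150.3. With only genes that share no 21 bases in the total, an alternative added after the data were examined, Mir222 was at 319 CPM and Mir221 at 509 CPM. Leaving out 1 replicate at a time gave 423 to 496 CPM for Mir221, 279 to 298 CPM for Mir222 and log2 ratios of Mir222 over Mir221 of -0.74 to -0.60. The ratio was -0.40 per hairpin length, also added after the data were examined. In edgeR's exact test with an assumed coefficient of variation of 0.2, the genes called fell from 186 to 2, and Mir221, at 0.23, was no longer called (adjusted p = 1, against 9.27e-07 to 1.27e-05 under the other alternatives). Its wider assumed spread makes that test stricter by construction. No alternative reversed a direction. The replicate tests could not be run without either library. No paired contrast of conditions was possible because there is 1 group, whereas the ratio of Mir222 to Mir221 was taken within each library. Fisher's exact test of the ratio rests on the counts of these 2 libraries, and its interval includes 0. Whether greater depth would change that was not tested.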
